A study of Homo sapiens with 2 samples.

Results

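Target genes of the transcription factor NRF2 that make and recycle cellular antioxidants were followed in HCT116 cells, a human colorectal carcinoma line labelled p53+/+. The 9 genes NQO1, HMOX1, GCLC, GCLM, TXNRD1, SRXN1, PGD, OSGIN1 and TXN were chosen by name, and every probe that the platform annotation assigns to them was taken. The annotation lists 13 probes for 8 of the 9 genes, out of 47318 probes on each array, and OSGIN1 is not analysed here. A probe was used when its detection p was under 0.01 on at least 1 array, which 12 of the 13 probes met. All 8 genes were therefore measured, among 10430 genes with a detected probe. One array held RNA of HCT116 p53+/+ cells given vehicle and the other RNA of the same line given SB590885, an inhibitor of RAF kinases, at 10 nM. Both cultures were grown in DMEM with serum, and the length of treatment is not given in the sources used here. With 1 array per condition no value has a replicate error, no test between conditions could be run, and every difference below is one between these 2 arrays.

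NRF2, encoded by NFE2L2, is held at a low level by KEAP1, an adaptor that delivers it to a CUL3 ubiquitin ligase. Oxidants and electrophiles modify KEAP1, NRF2 then accumulates, pairs with a small MAF protein and binds antioxidant response elements (AREs) near its target genes, a place for which BACH1 competes as a repressor. The targets supply glutathione, reduce thioredoxin and peroxiredoxins, generate NADPH and detoxify quinones and haem. RAS and RAF signalling has been reported to raise NFE2L2 transcription in mouse cells, and the series compared a RAF inhibitor with vehicle across the genome.

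Promoter sequences are shown for TXNRD1, the only one of the 8 measured genes past 1.5-fold, and for GCLM, whose promoter also holds an ARE match but which stayed close to its vehicle level. They are RefSeq sequences of build GRCh38.p14 and run from 250 bases before to 50 bases after an annotated start, matched by symbol for 8 of the 9 genes (9 windows, since TXNRD1 has a pair of starts). The core searched was TGACNNNGC on both strands (reverse complement GCNNNGTCA), and capitals mark its matches, written 5′ to 3′ along the gene.
TXNRD1, upstream start, chr12:104215529-104215828, plus strand: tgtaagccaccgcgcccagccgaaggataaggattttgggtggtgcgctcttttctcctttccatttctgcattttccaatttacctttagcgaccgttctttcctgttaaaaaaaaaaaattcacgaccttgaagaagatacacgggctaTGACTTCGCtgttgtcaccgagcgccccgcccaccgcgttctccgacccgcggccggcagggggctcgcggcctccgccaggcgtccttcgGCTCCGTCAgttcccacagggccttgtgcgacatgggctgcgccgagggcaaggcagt
TXNRD1, downstream start, chr12:104286782-104287081, plus strand: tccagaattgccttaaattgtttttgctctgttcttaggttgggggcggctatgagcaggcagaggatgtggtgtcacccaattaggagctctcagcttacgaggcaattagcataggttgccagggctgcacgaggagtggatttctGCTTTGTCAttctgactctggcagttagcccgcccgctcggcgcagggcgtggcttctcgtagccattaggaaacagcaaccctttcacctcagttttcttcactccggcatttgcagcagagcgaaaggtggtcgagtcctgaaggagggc
GCLM, chr1:93909381-93909680, minus strand: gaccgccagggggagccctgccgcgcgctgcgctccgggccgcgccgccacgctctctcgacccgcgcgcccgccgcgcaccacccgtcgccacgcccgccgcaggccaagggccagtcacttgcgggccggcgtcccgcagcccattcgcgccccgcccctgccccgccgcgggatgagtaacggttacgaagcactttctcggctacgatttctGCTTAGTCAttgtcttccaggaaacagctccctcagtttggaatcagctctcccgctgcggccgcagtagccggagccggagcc
The upstream TXNRD1 window held 2 matches, TGACTTCGC and GCTCCGTCA, of which the second ends on the start base. The downstream TXNRD1 window held GCTTTGTCA, starting 102 bases before the start, and the GCLM window held GCTTAGTCA, starting 34 bases before it. These last 2 matches also fit the extended form, in which an A follows the core, on the opposite strand. PGD held GCAATGTCA 201 bases before its start, while the windows of NQO1, GCLC, SRXN1, TXN and OSGIN1 held no core match. Across all 35116 promoter windows of the same length, 13.3% held the core and 3.18% the extended form. The AP-1 site TGACTCA, which can lie inside an ARE, was found in the OSGIN1 window alone among the 9 and in 4.95% of all windows, and no ARE core match of these windows overlapped one. A match is a run of letters and not a measured binding site, and AREs of several of these genes are known farther upstream than this window reaches.

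**Figure D1:**
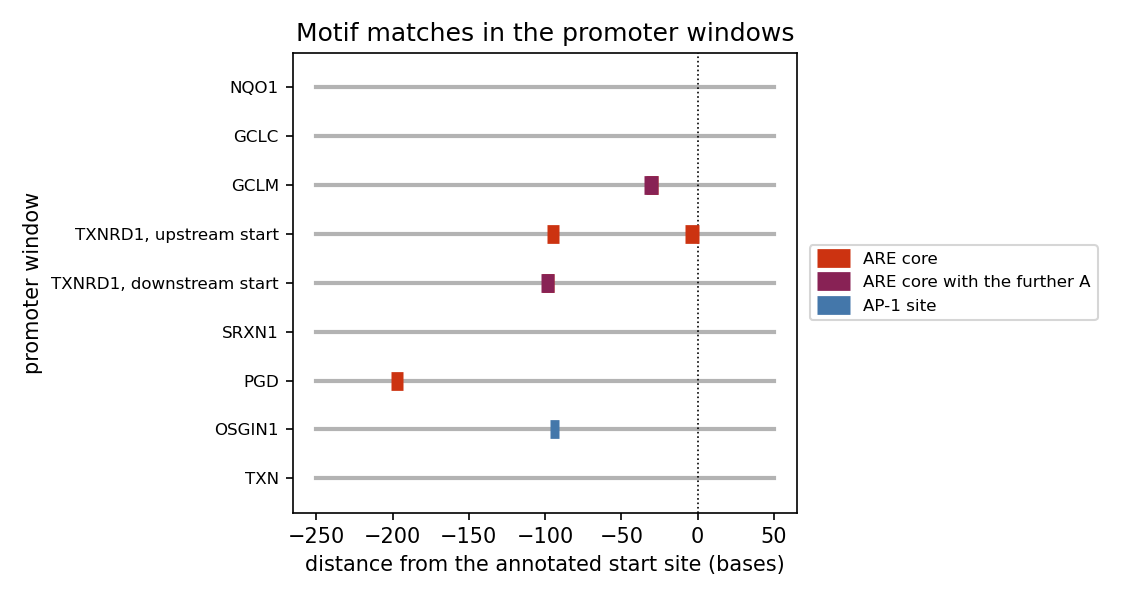
Positions of motif matches in the 9 promoter windows of 8 NRF2 target genes, with distance from the annotated start site in bases on the x axis and 1 line per window. Core matches lie in both TXNRD1 windows, in GCLM and in PGD, and the AP-1 site lies in OSGIN1.

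Detection reached 33.7% of all probes with vehicle and 35.3% after SB590885. The intensities are the authors' normalized values on a linear scale, in arbitrary units, with a background of about 112.7 units left in on the vehicle array and 112.3 on the SB590885 array. Of 10 colon epithelial markers with a named probe 9 were detected, among them EPCAM at 4420 units and KRT8 at 2978 units with vehicle. CDX2 (253.7 units), KRT18 (207.5) and CLDN4 (133.7) were dimmer with vehicle, and CLDN3 was detected after SB590885 only. VIL1 was not detected. Among the 9, CLDN7 was 1.52-fold higher after SB590885. Of 7 leukocyte markers 1 was detected (CD79A, at 133.6 units with vehicle only) and of 9 stromal and endothelial markers 3, with COL1A1 highest at 170.7 and 157.8 units. PTPRC, PECAM1 and COL3A1, which define such cells, were not detected. Of 14 genes driven by ERK, the kinase at the end of the RAF cascade, 0 differed by 1.5-fold. Of all detected genes 2.67% did so in either direction. The 14 genes were split, 6 higher and 8 lower, with log2 ratios from -0.27 to 0.37 and a median of -0.05.

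As a group the NRF2 targets stayed close to their vehicle levels. TXNRD1, cytosolic thioredoxin reductase, was the only one of the 8 to reach 1.5-fold, at 1.55-fold higher after SB590885, and none was 1.5-fold lower. None reached 2-fold, as 0.384% of all genes did in either direction. By the 1.5-fold rule 1.51% of all 10430 detected genes were higher and 1.16% lower. The single member past it rests on 1 of the gene's 2 probes. Of the 8 genes 5 were higher and 3 lower by any amount, where 49.8% of all detected genes were higher. The median log2 ratio, SB590885 over vehicle, was 0.03 for the 8 genes and -0.00082 for all detected genes. The median size of the log2 ratio, regardless of sign, was 0.12 for the 8 genes and 0.13 for all genes. RNA was pooled over each culture, so a difference in some cells and a smaller one in every cell cannot be told apart.

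**Figure D2:**
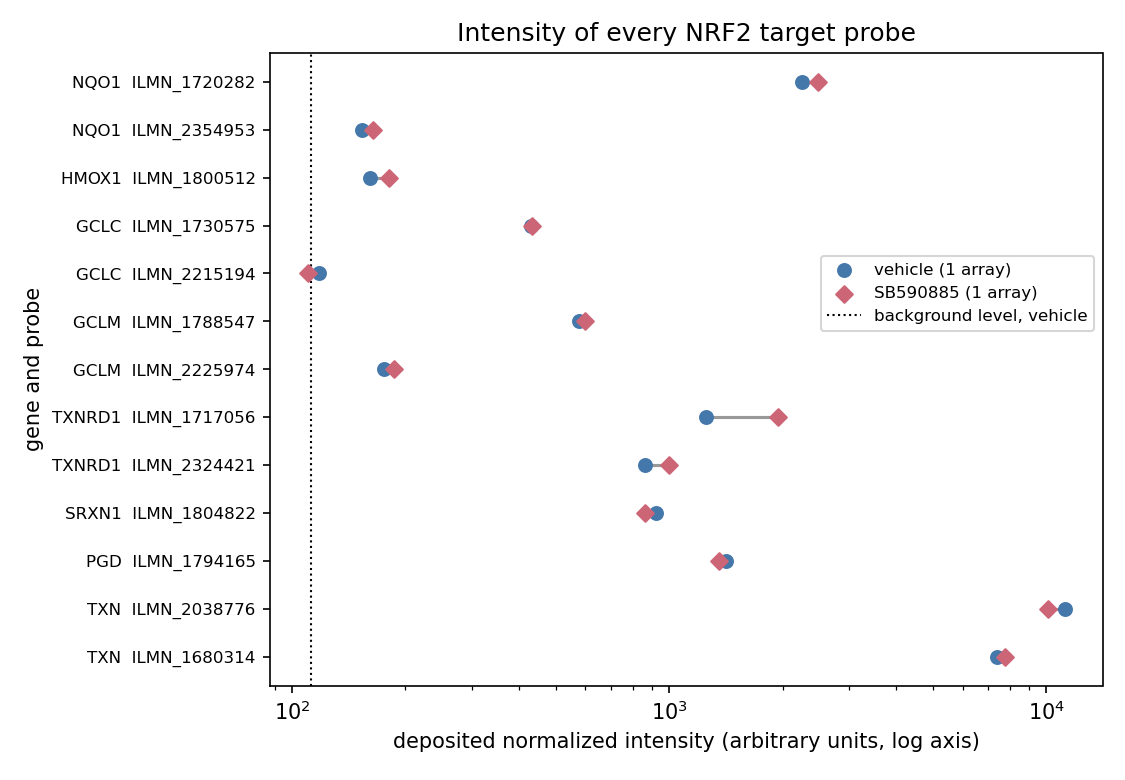
Normalized intensity (arbitrary units, log axis) of all 13 probes of 8 NRF2 target genes on the vehicle array (circles) and the SB590885 array (diamonds), 1 array each, with a dotted line at the background of the vehicle array. The points of the TXNRD1 probe ILMN_1717056 are the farthest apart, and the GCLC probe ILMN_2215194 lies at background.

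**Figure D3:**
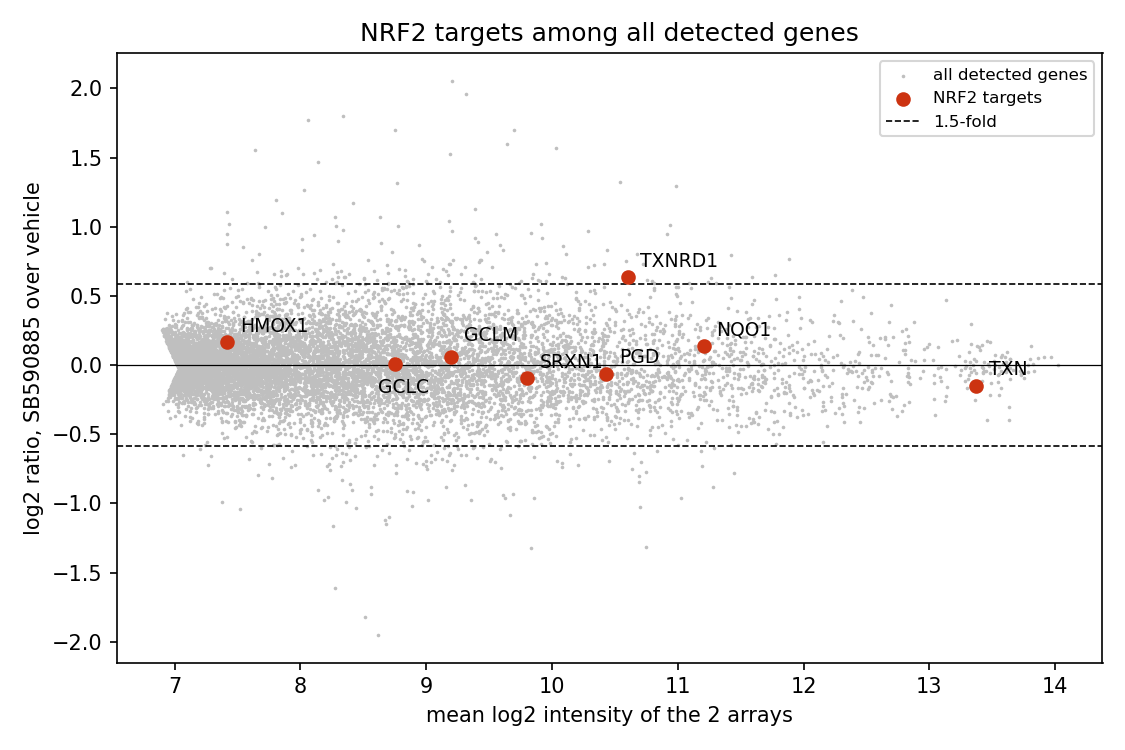
Log2 ratio of SB590885 over vehicle (y axis) against mean log2 intensity of the 2 arrays (x axis) for 10430 detected genes (grey) and 8 NRF2 target genes (red), with dashed lines at 1.5-fold. TXNRD1 lies above the upper line and the other 7 lie between the lines.

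The thioredoxin branch held the highest of the 8 genes, and beside it 2 genes close to their vehicle levels. TXNRD1 encodes the selenoprotein that passes electrons from NADPH to thioredoxin. Its brighter probe, ILMN_1717056, read 1249 units with vehicle and 1940 after SB590885, a log2 ratio of 0.64. Its other probe, ILMN_2324421, read 861.9 and 1001 units, a log2 ratio of 0.22 or 1.16-fold. Both probes were thus higher after SB590885, but by sizes that differ. The annotation ties the first probe to transcript NM_001093771 and the second to NM_182743, 2 of the transcripts of this gene. Probe positions and the start of each transcript are not used here, and the probes were not assigned to the promoters shown above.

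The gap between the TXNRD1 probes was 0.42 on the log2 scale. Over 2631 genes with several detected probes, the 2 brightest probes differed with an SD of 0.25, and 8.40% of these genes had a gap at least as large. Among 96 such genes whose brightest probe passed 1.5-fold, the second probe had the same sign in 83 and passed 1.5-fold the same way in 23. Since these 96 genes were picked by their brightest probe, a smaller ratio of the second is favoured by that choice. By its brighter probe TXNRD1 ranked 113 of 10430 genes from the highest ratio, which places it within the top 1.08%.

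**Figure D4:**
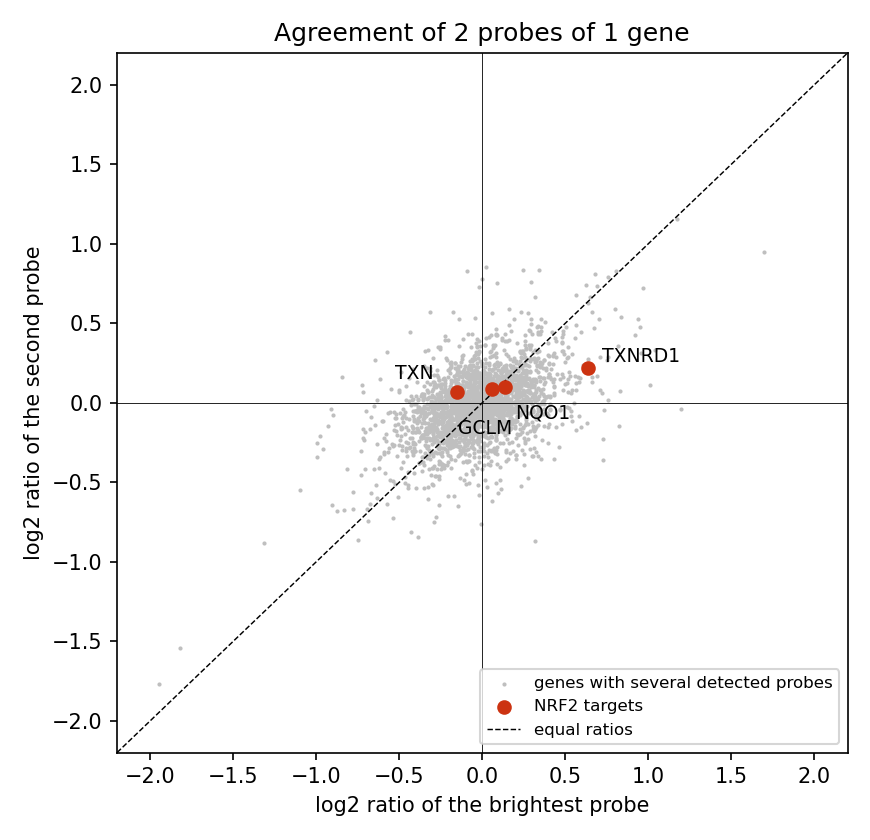
Log2 ratio of the second probe (y axis) against that of the brightest probe (x axis) of 1 gene, for 2631 genes with several detected probes (grey) and the 4 NRF2 targets among them (red), with a dashed line of equal ratios. TXNRD1 lies at 0.64 and 0.22, and TXN has probes of opposite sign.

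TXN encodes thioredoxin, the small disulphide reductase that TXNRD1 keeps reduced. Its probe ILMN_2038776 read 11180 units with vehicle and 10078 after SB590885, a log2 ratio of -0.15 or 1.11-fold lower. Its probe ILMN_1680314 read 7405 and 7767 units, a log2 ratio of 0.07. The probes thus moved in opposite directions by small amounts and gave TXN no consistent direction, with a gap of 0.22 that 32.7% of genes with several probes matched or exceeded. SRXN1, sulfiredoxin, repairs overoxidized peroxiredoxins. Its single probe read 923.9 units with vehicle and 865.6 after SB590885, a log2 ratio of -0.09, which 63.2% of all genes matched or exceeded in size.

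The pair of genes for glutamate-cysteine ligase, the rate-limiting enzyme of glutathione synthesis, differed little. GCLC, the catalytic subunit, read 429.7 units with vehicle and 431.8 after SB590885 on its detected probe, a log2 ratio of 0.0071. In size of ratio 97.0% of all detected genes were at or above it. The other GCLC probe lay at background, at 118.0 and 110.4 units with detection p of 0.20 and 0.62, and was left out. GCLM, the modifier subunit that raises the affinity of the enzyme for glutamate, read 576.8 and 600.0 units on its brighter probe, a log2 ratio of 0.06. Its second probe read 175.2 and 186.4 units, a log2 ratio of 0.09. Both GCLM probes were slightly higher after SB590885 and differed by 0.03 as deposited, or by 0.17 once the background was subtracted, since the second lay at 1.56 times the background on the vehicle array.

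NQO1, a quinone reductase that uses NADPH and a widely used readout of NRF2, was slightly higher on both its probes. ILMN_1720282 read 2252 units with vehicle and 2476 after SB590885, a log2 ratio of 0.14 or 1.10-fold. ILMN_2354953 read 153.4 and 164.2 units, a log2 ratio of 0.10. This second probe was the dimmest of the 12 detected ones, while the GCLC probe described above was the one that missed the detection limit. The NQO1 probes differed by 0.04 as deposited. The second lay at 1.36 times the background on the vehicle array, and the gap was 0.11 with background correction (limma's nec, offset 16) and 0.20 with plain subtraction of the background.

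HMOX1 encodes haem oxygenase, which breaks haem down to biliverdin, iron and carbon monoxide. Its single probe read 161.6 units with vehicle and 181.4 after SB590885, a log2 ratio of 0.17. On the vehicle array this was 1.43 times the background, so the ratio was compressed by the background left in. With background correction the gene was 1.31-fold higher, and with plain subtraction 1.41-fold, against 1.12-fold as deposited. HMOX1 stayed under 1.5-fold in each case, although this correction placed 5.16% of all genes at least 1.5-fold higher and 4.63% lower. The ratios of the brighter genes hardly moved with this correction, to 1.60-fold for TXNRD1 and 1.10-fold for NQO1.

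PGD, 6-phosphogluconate dehydrogenase, makes NADPH in the pentose phosphate pathway. Its probe read 1412 units with vehicle and 1353 after SB590885, a log2 ratio of -0.06 or 1.04-fold lower. By the brightest probe, from highest to lowest ratio, the order was TXNRD1, HMOX1, NQO1, GCLM, GCLC, PGD, SRXN1 and TXN. The 7 genes after TXNRD1 spanned -0.15 to 0.17, all less than 1 SD from 0, and neighbours in this order cannot be ranked without replicates. That SD of the log2 ratio was 0.25, over 9405 genes whose brightest detected probe was detected on both arrays. The 12 detected probes included 9 higher and 3 lower, and 11 of them lay within 1.5-fold.

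Other genes of the pathway were read from 9 lists by role, 106 genes in all, of which 97 had a named probe and 73 were detected. Of these 73, 35 were higher and 38 lower, with a median log2 ratio of -0.02. The counts of each list below stand beside the 49.8% of all detected genes that were higher. GSTO1 was at least 1.5-fold higher and ABCC4 at least 1.5-fold lower, so that 2.74% of the 73 genes passed the rule in either direction, close to the 2.67% of all detected genes.

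Among 10 detected genes on the list for NRF2 control, NFE2L2 itself and NFE2L1 included, 8 were higher by their brightest probe. By any amount 49.8% of all detected genes were higher. The 8 include RBX1 and MAFG, at log2 ratios of only 0.0011 and 0.013. None of the 10 passed 1.5-fold, and their median log2 ratio was 0.08. All detected probes were higher for 6 of the 10 and lower for 1, and 3 (KEAP1, MAFG and DPP3) had probes of opposite sign. NFE2L2 itself read 479.0 units with vehicle and 709.9 after SB590885 on its single probe, 1.48-fold higher, just under the rule and at rank 170 of 10430. With background correction NFE2L2 was 1.60-fold higher. NFE2L1, a related factor that controls proteasome genes, was 1.27-fold higher (494.5 to 626.1 units). KEAP1 had probes of opposite sign, at log2 ratios of 0.10 and -0.12. BTRC, a ubiquitin ligase adaptor that also marks NRF2 for destruction, was the lowest of the list, 1.27-fold lower (208.3 to 163.5 units) and 1.68-fold lower with background correction. DPP3, which binds KEAP1, had a log2 ratio of -0.02 on its brightest probe and, like KEAP1, probes of opposite sign. BACH1 and CUL3 were not detected on either array.

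Genes that take up cystine, make glutathione and use it as a cofactor were split, with 5 of 11 detected higher, none past 1.5-fold and a median of -0.04. GPX4, the peroxidase of membrane lipids, was 1.25-fold higher (4314 to 5383 units), with a second probe at 1.20-fold. GPX1, the main cytosolic glutathione peroxidase, was 1.22-fold higher (2453 to 3000.5 units). SLC7A11, the cystine importer, read 133.6 and 139.5 units, near the detection limit on both arrays. GSR, glutathione reductase, was 1.10-fold higher (277.5 to 304.5 units), and its second probe was nearly level, at 0.02 on the log2 scale. GLRX3, a glutaredoxin that carries iron-sulphur clusters, was 1.44-fold lower on its brighter probe (1402 to 971.6 units) and 1.07-fold lower on the other. GLRX, the cytosolic glutaredoxin, had a log2 ratio of -0.22.

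Of 13 detected glutathione transferases and exporters 8 were higher, where 49.8% of all detected genes were. The median log2 ratio of the 13 was 0.06. GSTO1, an omega-class transferase, was 1.56-fold higher on its probe ILMN_2227573 (2471 to 3849 units). Its other probe was 1.21-fold higher (2697 to 3261 units), so both probes had the same sign and 1 passed the rule, as for TXNRD1. ABCC5, an exporter of cyclic nucleotides, was 1.25-fold higher on its brightest probe (173.7 to 217.1 units), or 1.57-fold with background correction, and 1.05-fold higher on its second. ABCC4, an exporter of the same kind, was 2.14-fold lower (609.1 to 284.1 units) and 1.47-fold lower on its second probe. ABCC4 lies on chromosome 13. Of the 20 detected genes nearest to it, 10 on each side, 19 were also lower, where 49.8% of all detected genes were higher. The median log2 ratio of these neighbours was -0.52, against -0.00082 for all detected genes. None of the 9 NRF2 targets lies on that chromosome, and the part of these neighbours in the ABCC4 value was not tested. ABCC2, a canalicular exporter of glutathione conjugates, had a log2 ratio of -0.08. GSTM4 was detected with vehicle only and was at least 1.03-fold lower. Probes of the GSTM genes may bind more than 1 member of that family.

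Around TXNRD1 and TXN, 7 of 9 detected genes of the thioredoxin and peroxiredoxin system were lower by their brightest probe. Of all detected genes 49.8% were higher by any amount. The median of the 9 was -0.11 and none passed 1.5-fold. All detected probes were lower for 5 of the 9 and higher for 2, and PRDX1 and PRDX3 had probes of opposite sign. TXNRD2, the mitochondrial thioredoxin reductase, was 1.28-fold lower (221.8 to 173.5 units), opposite in sign to both TXNRD1 probes, and 1.63-fold lower with background correction. PRDX3, the mitochondrial peroxiredoxin, was 1.35-fold lower on its brighter probe (5426 to 4007 units) and 1.36-fold higher on the other (2679 to 3646 units), and so had no consistent direction. PRDX4, the peroxiredoxin of the endoplasmic reticulum, was 1.27-fold higher (1920 to 2437 units). PRDX1, an abundant cytosolic peroxiredoxin often counted among NRF2 targets, read 10057 and 9924 units, a log2 ratio of -0.02. SESN1, 1 of the 2 higher genes, was detected after SB590885 only and was at least 1.08-fold higher. SESN2 read 139.1 and 132.5 units, near the detection limit on both arrays. TXNIP, which binds and inhibits thioredoxin, was not detected.

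Of 8 detected genes on the list for NADPH supply, which leaves out PGD, 6 were lower, where 49.8% of all detected genes were higher. The median of the 8 was -0.12 and none passed 1.5-fold. The list includes pentose phosphate enzymes that do not form NADPH themselves, among them RPE, RPIA and PGLS. ME1 and IDH1, which form NADPH, had log2 ratios of -0.22 and -0.03 by their brightest probes. The second IDH1 probe was 1.33-fold lower (443.9 to 333.8 units). RPE and RPIA, which interconvert pentose phosphates, were 1.31-fold lower each (571.8 to 436.4 and 849.2 to 649.2 units). PGLS, the lactonase just before PGD in the pathway, was 1.15-fold higher, and IDH2, the mitochondrial NADPH-forming isocitrate dehydrogenase, had a log2 ratio of 0.04.

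Of 17 listed enzymes that act on quinones, carbonyls and drugs 7 were detected, 4 of them higher, with a median of 0.15 and none past 1.5-fold. PIR, an iron-binding nuclear protein induced by NRF2, was 1.33-fold higher (589.0 to 785.4 units), with a second probe at 1.11-fold. NQO2, the paralogue of NQO1, was 1.20-fold higher (476.7 to 570.6 units). PTGR1, a reductase of reactive aldehydes and prostaglandins, and CBR3, a carbonyl reductase, had log2 ratios of -0.34 and -0.23. CBR3 lay near background (160.2 to 136.6 units) and was 1.60-fold lower with background correction. AKR1B10, AKR1C1, AKR1C2 and AKR1C3, aldo-keto reductases that are among the most responsive NRF2 targets in human cells, were not detected on either array.

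Among 8 detected genes of haem and iron handling 3 were higher, with a median of -0.07 and none past 1.5-fold. BLVRA, which reduces the biliverdin made by haem oxygenase, was 1.21-fold higher (661.0 to 798.4 units). FTL, the ferritin light chain and an NRF2 target with many processed copies in the genome, was 1.12-fold higher (10767 to 12104 units) and 1.21-fold higher on its second probe. TFRC, the transferrin receptor, had a log2 ratio of -0.23. ALAS1, the first enzyme of haem synthesis, had probes of opposite sign, at -0.21 and 0.16. Of the enzymes that remove superoxide and hydrogen peroxide, SOD2, the mitochondrial dismutase, was 1.20-fold higher (1088 to 1302 units), CAT, catalase, had 0.05 with a second probe of opposite sign, and SOD1, the cytosolic dismutase, had -0.07 on the log2 scale. Of 4 detected genes on a list of other reported NRF2 targets and relatives, 3 were lower. OSGIN2, the paralogue of OSGIN1, had -0.12, and TRIM16L and RIT1 had -0.05 each. TRIM16L (139.4 and 134.3 units) and RIT1 (146.0 and 140.6 units) lay near the detection limit. ABHD4 was detected after SB590885 only and was at least 1.08-fold higher.

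**Figure D5:**
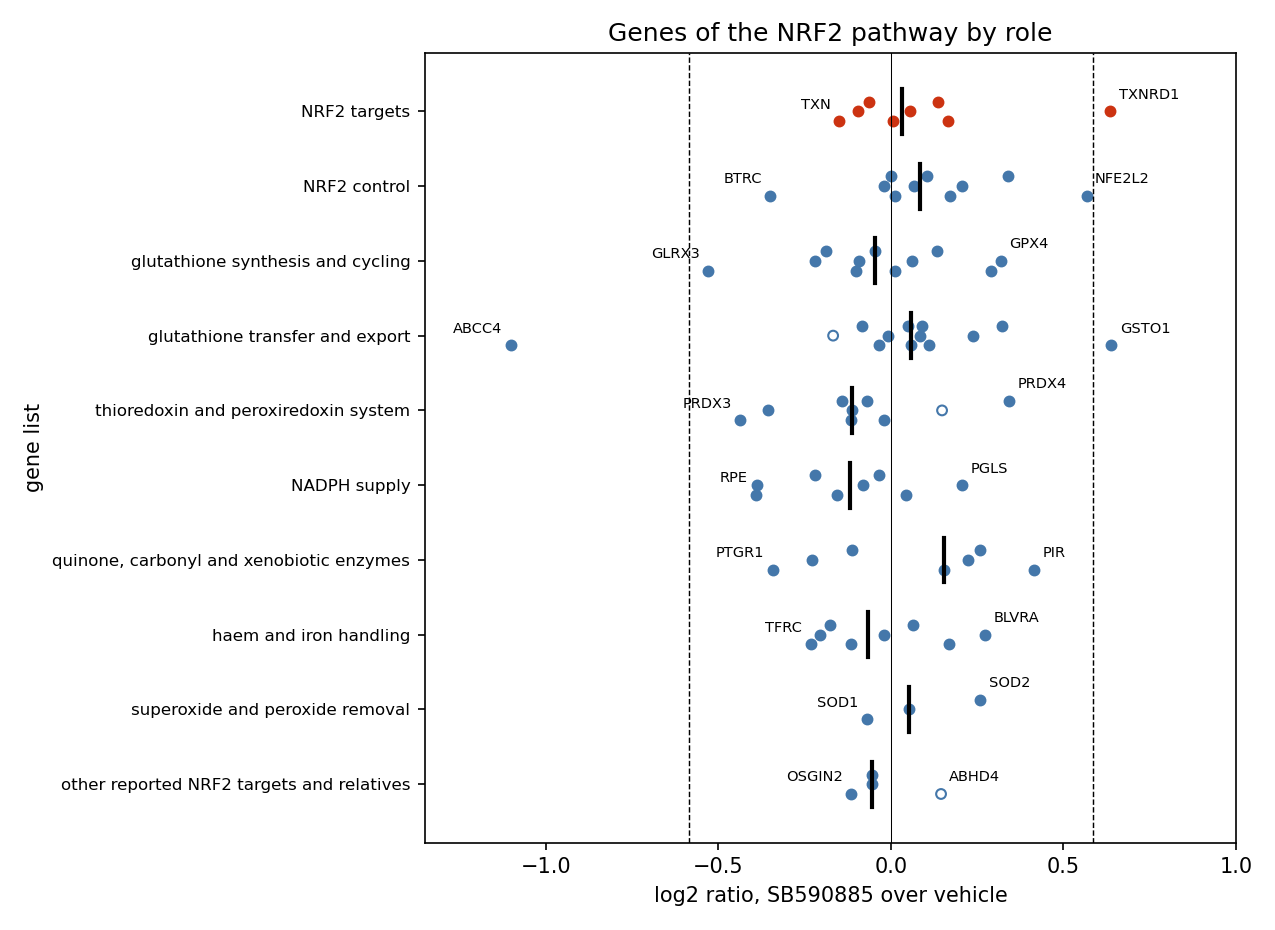
Log2 ratio of SB590885 over vehicle (x axis) for every detected gene of the 8 NRF2 targets (red) and of 9 lists of pathway genes (blue), 1 point per gene, with open points for genes detected on 1 array only, vertical bars at list medians and dashed lines at 1.5-fold. TXNRD1, GSTO1 and ABCC4 lie outside the dashed lines, and NFE2L2 lies just inside.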

How the data were processed

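RNA of HCT116 cells was labelled as biotinylated cRNA for Illumina arrays, per the labels' protocols. The authors deposited a normalized table of intensity values with a detection p-value per probe and array. How it was normalized is not given in the sources used here, and its columns, once sorted, are equal to within 0.129 units. The table named non-normalized holds the same intensities and detection p-values times 1.025, a score that passes 1, so it has no raw signal, and the deposited series matrix repeats the normalized intensities. Probes were named through the platform annotation (30119 of 47318 listed, 8 with several genes left unnamed). Of the named probes, 30072 had symbols updated through RefSeq (GRCh38.p14).

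Each gene was represented by the brightest of its detected probes, by mean log2 intensity. Log2 ratios of the deposited intensities, SB590885 over vehicle, were counted at 1.5-fold. A gene detected on 1 array was counted by its bound, its intensity on the other array being raised to the lowest detected there (132.2 units with vehicle, 129.8 after SB590885) where it was below it. Background correction used nec in limma 3.58.1 on the deposited values. The counting was tested only on simulated data with changes of 2-fold or more in bright genes and with less scatter between probes than seen here. That test does not cover changes near 1.5-fold or genes detected on 1 array. Members and lists were chosen with earlier results of these data known, and the selenoprotein list after seeing values. In each pathway list the 2 highest and 2 lowest genes detected on both arrays, those past 1.5-fold and a few always named were described, and others named were chosen after their values were seen. The number of arrays limits the precision.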

Additional observations from a re-analysis of the deposited data

How the results depend on the processing

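The count of 1 NRF2 target past 1.5-fold did not hold when ratios were averaged over a gene's detected probes (0 of 8, TXNRD1 at a log2 ratio of 0.43), with each gene's second-brightest probe, an alternative added after seeing the data (0, TXNRD1 at 0.22), or with a 2-fold rule (0). It was 1 under the other 9 of 12 alternatives, all of which read TXNRD1 from the same brightest probe, ILMN_1717056. Those that changed only the detection limit could not move the TXNRD1 ratio, since that probe was detected on both arrays. TXN had a log2 ratio of 0.07 with its second-brightest probe, and GCLC -0.0022 with nec and median centring. The number of genes higher was 4 to 6 and the sign of the other 6 genes did not change under any alternative. Over all genes, the counts at least 1.5-fold higher and lower were 157 and 121 as deposited, 538 and 483 with nec at offset 16, 303 and 241 at offset 50, 513 and 509 with nec at offset 16 and median centring in place of quantile normalization, 695 and 655 with background subtraction over the 9408 genes detected on both arrays, and 26 and 14 by the 2-fold rule; apart from the stricter rule, the cause was not tested. The non-normalized table could not move a ratio. No paired analysis was possible because each condition has 1 array. Signal close to background limits HMOX1, SLC7A11 and the dim probes of NQO1, GCLM and GCLC.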

Other observations

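TXNRD1, TXNRD2, GPX1 and GPX4 belong to the selenoproteins, which carry selenocysteine in place of cysteine, often in the active site. All 25 human selenoprotein genes were therefore listed after these values had been seen, and 15 of the 24 with a named probe were detected. Of the 15 genes 9 were higher after SB590885 and 6 lower, where 49.8% of all detected genes were higher. The median log2 ratio was 0.13, or 0.07 over the 14 genes other than TXNRD1. TXNRD1 alone passed 1.5-fold, a rule that 2.67% of all detected genes passed in either direction. With background correction TXNRD2 passed it as well, at 1.63-fold lower. SELENOM, a redox protein of the endoplasmic reticulum, was 1.29-fold higher (316.1 to 407.8 units) and SELENOW, a small cytosolic redox protein, 1.23-fold higher (777.6 to 955.8 units). MSRB1, a methionine sulfoxide reductase, was 1.20-fold higher (886.0 to 1067 units). SEPHS2, which makes the selenium donor for selenocysteine synthesis, was 1.20-fold lower (335.8 to 280.4 units), and SELENOS, a membrane protein of the endoplasmic reticulum, 1.16-fold lower (1585 to 1371 units), and its second probe was at -0.22 on the log2 scale. The list was chosen from the values and was given no test.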
